A study of Homo sapiens with 12 samples.

Results

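In SUPT-1 cells, a human T-cell acute lymphoblastic leukaemia line, 362 chromatin regions were bound by the glucocorticoid receptor NR3C1 under prednisolone when the cells carried STAT5B N642H, and overlapped STAT5B regions listed in untreated N642H cells where none was listed in untreated WT cells. With the 2 NR3C1 lists, and the 2 untreated STAT5B lists, cut to equal length, 67 regions met the same rule. These regions were chosen by their calls in 4 peak lists. Each came from the NR3C1 list of N642H cells with prednisolone, overlapped no NR3C1 region of prednisolone-treated wild-type (WT) cells, overlapped a STAT5B region of untreated N642H cells by at least 1 bp, and overlapped no STAT5B region of untreated WT cells. They made up 12.5% of the 2888 NR3C1 regions of N642H cells with prednisolone and 18.1% of the 2001 that overlapped no WT NR3C1 region. Absence from a WT list, presence at untreated N642H STAT5B, and the NR3C1 and untreated STAT5B strengths were therefore fixed or shaped by the choice, and are described below without a test.

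NR3C1 is a nuclear receptor that enters the nucleus on binding glucocorticoids such as prednisolone, a mainstay of leukaemia treatment, and binds an inverted repeat known as the glucocorticoid response element (GRE). STAT5B is the transcription factor that interleukin 7 and related cytokines activate through JAK kinases in T-cell precursors. It binds a palindrome called the GAS motif and is known for inducing survival and feedback genes such as BCL2L1, PIM1 and CISH. N642H is a recurrent activating substitution in the SH2 domain of STAT5B that prolongs its phosphorylated, DNA-bound state.

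All cells had been selected with puromycin and carried a doxycycline-driven construct, so STAT5B was overexpressed in every group, WT lines included, with doxycycline present in each. The 12 libraries were 8 ChIP libraries, with NR3C1 or STAT5B precipitated from WT or N642H cells left untreated or given prednisolone at 250 µg per ml for 16 hours, and 4 input libraries that were not analysed here on their own. Each group was 1 library, so no value has a replicate error, and the tests below compare classes of regions in these libraries, not conditions. Peak lists hold no expression values, so the identity of the cells was not checked against marker genes.

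The lists differed in length. On chromosomes 1 to 22, X and Y, STAT5B had 4542 regions in untreated N642H cells, 446 in N642H cells with prednisolone, 2267 in untreated WT cells and 766 in WT cells with prednisolone. NR3C1 had 2888 regions in N642H and 995 in WT cells with prednisolone, and 2 in each untreated line, none of which overlapped any of the 362. Total read counts were not given. From the deposited fold and p-value of each region, the lowest local background shared by regions came to 0.656 reads for NR3C1 in N642H cells, 0.977 for STAT5B in untreated N642H cells, 0.64 for STAT5B in untreated WT cells and 0.31 for STAT5B in N642H cells with prednisolone. A missing call in a library with less background, the untreated WT STAT5B library included, is therefore not a measurement of absent or lost binding. Both lists of prednisolone-treated WT cells, among them the WT NR3C1 list used in the choice, appear to hold rescaled values, so no local background was solved for them. How far library depth set the length of each list was not tested.

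Of the 362 regions, 47 overlapped a promoter window of RefSeq (GRCh38.p14, 250 bases before to 50 after a start site). The sequence of 5 of these windows upstream of the start site is shown. Each holds the GAS palindrome TTCNNNGAA or the GRE core ACANNNTGT within 63 bp of an NR3C1 summit, the base of highest signal. Windows not shown could hold a nearer motif, as at ZNF181, where a GAS palindrome lay 1 bp from the summit. Capitals mark the matches, and both motifs are their own reverse complement, so 1 search covers both strands. The windows at CISH, PLEKHG2 and UTP3 follow from the rule for named genes, whereas those at SELPLG and MRPS5 were chosen after their values were seen. CISH encodes a SOCS-family feedback inhibitor of cytokine receptors (chr3:50611775-50612024, minus strand), PLEKHG2 lies next to ZFP36, an mRNA-decay factor gene (chr19:39412419-39412668, plus strand), and SELPLG encodes the P-selectin ligand of leukocytes, which the transcript LOC105369968 overlaps (chr12:108628396-108628645, plus strand). LOC101927297 starts near UTP3, a ribosome-assembly gene (chr4:70678408-70678657, plus strand), and LOC105373488 near MRPS5, a mitochondrial ribosomal protein gene (chr2:95074640-95074889, plus strand).
CISH promoter: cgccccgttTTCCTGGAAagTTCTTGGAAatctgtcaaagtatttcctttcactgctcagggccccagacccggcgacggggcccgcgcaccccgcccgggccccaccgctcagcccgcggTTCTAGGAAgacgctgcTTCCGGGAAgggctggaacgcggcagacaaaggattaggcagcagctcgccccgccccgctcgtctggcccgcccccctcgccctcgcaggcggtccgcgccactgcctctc
LOC105369968 promoter at SELPLG: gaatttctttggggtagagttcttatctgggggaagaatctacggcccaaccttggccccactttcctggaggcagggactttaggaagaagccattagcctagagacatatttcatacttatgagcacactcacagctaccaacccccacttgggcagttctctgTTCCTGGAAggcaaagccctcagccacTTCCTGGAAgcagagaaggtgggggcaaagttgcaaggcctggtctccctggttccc
LOC105373488 promoter near MRPS5: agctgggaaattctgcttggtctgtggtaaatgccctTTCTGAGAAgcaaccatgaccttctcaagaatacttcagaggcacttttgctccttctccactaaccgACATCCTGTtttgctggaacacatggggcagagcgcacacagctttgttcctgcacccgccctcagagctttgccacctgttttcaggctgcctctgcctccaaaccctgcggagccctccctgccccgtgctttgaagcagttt
LOC101927297 promoter near UTP3: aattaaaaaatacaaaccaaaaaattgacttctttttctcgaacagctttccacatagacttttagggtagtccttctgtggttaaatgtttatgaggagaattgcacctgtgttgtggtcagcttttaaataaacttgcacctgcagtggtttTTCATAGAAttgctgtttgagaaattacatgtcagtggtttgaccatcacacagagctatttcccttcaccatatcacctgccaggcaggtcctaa
PLEKHG2 promoter near ZFP36: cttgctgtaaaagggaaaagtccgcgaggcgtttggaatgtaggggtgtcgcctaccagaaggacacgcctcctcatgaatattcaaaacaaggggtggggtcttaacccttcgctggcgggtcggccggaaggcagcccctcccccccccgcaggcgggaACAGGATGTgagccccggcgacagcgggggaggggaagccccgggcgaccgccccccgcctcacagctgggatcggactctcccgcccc

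The CISH window held 4 GAS palindromes, all inside the NR3C1 region, and the centre of the nearest lay 5 bp from the NR3C1 summit. Among 35116 promoter windows on the chromosomes held by the table, 7.66% had at least 1 GAS palindrome and 7, or 0.0199%, had at least 4. The LOC105369968 window at SELPLG held 2, with the nearest 11 bp from the summit. At LOC105373488, both a GAS palindrome and a GRE core lay in the NR3C1 region, and the nearer motif centre was 2 bp from the summit. The GAS palindrome at LOC101927297 was 22 bp and the GRE core at PLEKHG2 63 bp from their summits. Over the 47 regions with a promoter window, taking the window with the longest overlap for each, the GAS palindrome was found in 11 (23.4%) and the GRE core in 6 (12.8%). The GRE core was in 5.37% of all windows, in 8.22% of those at N642H-only NR3C1 regions with no untreated STAT5B and in 4.08% of those at regions on WT-line STAT5B. For N642H-only NR3C1 regions with no untreated STAT5B in either line, 13 of 73 windows (17.8%) held the GAS palindrome, and for those on WT-line STAT5B sites 9 of 98 (9.18%). Both-line NR3C1 regions on N642H-only STAT5B had 8 windows, of which 2 held the GAS palindrome and 0 the GRE core. These matches are letters in a window and no record of binding to them.

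In strength, the 362 regions ranged from just above the calling limit to among the strongest NR3C1 peaks of the line. Fold here is the authors' value of signal over local background for each peak. The NR3C1 fold ran from 4.12 to 47.5 with a median of 7.62, beside a median of 8.26 over all 2888 NR3C1 regions, 7.24 for the 1354 N642H-only regions without untreated STAT5B, and 13.0 for the 84 regions where NR3C1 was called in both lines on N642H-only STAT5B. At the summits 8 to 116 reads were piled up, with a median of 16. The untreated STAT5B fold at the same places ran from 3.71 to 27.3 with a median of 6.99. NR3C1 and STAT5B folds were loosely related across the 362 regions, with a Pearson r of 0.25 on the log2 scale and a Spearman coefficient of 0.18, a description over regions that share 2 libraries.

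**Figure D1:**
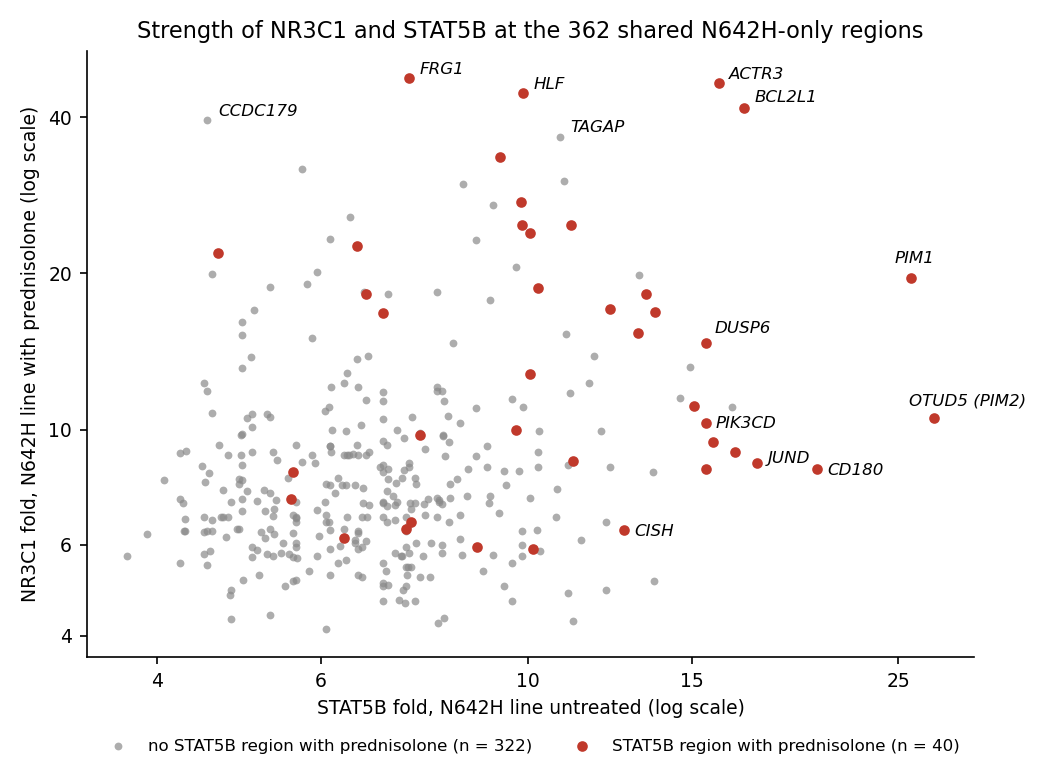
Each point is 1 of the 362 regions, placed by its STAT5B fold in untreated N642H cells (x axis, log scale) and its NR3C1 fold in N642H cells with prednisolone (y axis, log scale). Red marks the 40 regions that also overlapped a STAT5B region in N642H cells with prednisolone, which include the highest NR3C1 fold, at FRG1, and the highest STAT5B fold, at OTUD5, while grey marks the other 322.

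The peaks of the 2 factors were close together, as far as the required overlap leaves this free. The NR3C1 and STAT5B summits were a median of 39 bp apart, within 50 bp at 210 regions and within 100 bp at 295 (81.5%). The overlap of the called regions had a median of 175.5 bp and was at least 100 bp in 331. On WT-line STAT5B sites the corresponding median distance was 38.5 bp, and at both-line NR3C1 regions on N642H-only STAT5B it was 54.0 bp.

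**Figure D2:**
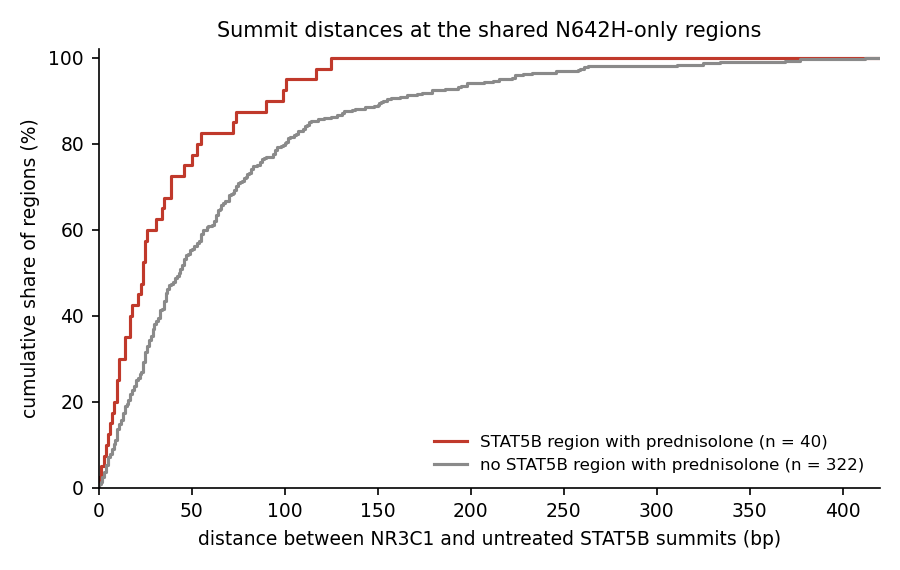
The curves give the cumulative share (y axis, %) of regions whose NR3C1 and untreated STAT5B summits lie within a given distance (x axis, bp). The 40 regions with a STAT5B call under prednisolone have a median of 24.0 bp and the 322 others a median of 43.5 bp.

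The strongest of all by NR3C1 q-value were spread over genes of many functions, and names below are those of the nearest protein-coding gene unless said otherwise, which need not be the regulated one. The highest −log10 q, 162.5, belonged to a region 37621 bp upstream of FRG1 on chromosome 4, with an NR3C1 fold of 47.5 on a STAT5B fold of 7.46. The second was inside BCL2L1, which encodes the anti-apoptotic protein BCL-XL, at chr20:31675720-31676298. There the NR3C1 fold was 41.7, the untreated STAT5B fold 17.1 and the STAT5B fold with prednisolone 12.9, with the first 2 summits 1 bp apart. The nearest WT NR3C1 region lay 32153 bp from this BCL2L1 region. Upstream of ACTR3, a subunit gene of the actin-nucleating ARP2/3 complex, the NR3C1 fold was 46.5, beside STAT5B folds of 16.0 untreated and 10.5 with prednisolone. Near HLF, a PAR bZIP transcription factor gene, the NR3C1 fold was 44.6 and the STAT5B folds 9.88 and 7.37. These 4 kept a STAT5B call under prednisolone.

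Others among the strongest did not. The region nearest CCDC179, 783161 bp from it, had an NR3C1 fold of 39.5 on a STAT5B fold of 4.53, and the one at TAGAP, a T-cell GTPase-activating protein gene, had folds of 36.7 and 10.8. Neither overlapped a STAT5B region with prednisolone. The same held for the region inside LPAR6, a lysophospholipid receptor gene nested within the retinoblastoma gene RB1, with an NR3C1 fold of 29.7 and a STAT5B fold of 8.53, and for the regions at CTTNBP2, N4BP2, NTNG1, LRP1B, ZNF107 and SYNE2, whose NR3C1 folds ran from 19.8 to 31.8. RIN1, ZNF287, WIPF1, SV2B, PIM1 and RIT2, with NR3C1 folds from 19.6 to 33.5, each had a STAT5B call with prednisolone. The remaining region of the strongest 20 lay between genes on chromosome 8 and had none.

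By untreated STAT5B q-value the leading regions included several near known cytokine-STAT5 targets. The region 7918 bp beyond PIM1, which encodes a serine/threonine survival kinase, had an untreated STAT5B fold of 25.8, an NR3C1 fold of 19.6 and a STAT5B fold with prednisolone of 4.69. Inside OTUD5 and 18186 bp upstream of the start of its neighbour PIM2, the untreated STAT5B fold was 27.3, the NR3C1 fold 10.5 and the STAT5B fold with prednisolone 12.6. Near CD180, a toll-like receptor homologue gene, the corresponding folds were 20.5, 8.39 and 7.12, and near JUND, an AP-1 subunit gene, 17.6, 8.61 and 7.91. At CDC42SE2, KAZN and UTP3 the untreated STAT5B folds of 16.6, 14.9 and 10.7 came with no STAT5B call under prednisolone. The other 7 of these 10, which include BCL2L1, ZNF287 and PIK3CD, had both STAT5B calls, each with the lower fold under prednisolone, in a comparison of 2 single libraries of different depth.

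Genes of 11 lists were then linked to the 362 regions, a link meaning a summit in the gene or within 20 kb of it. Of all 19866 protein-coding genes, 2.04% were linked to these regions and 11.0% to any NR3C1 region of N642H cells. Of the 30 cytokine-STAT5 target and feedback genes, 8 were linked to 1 of these regions, and 15 to any NR3C1 region of N642H cells. They were the 3 PIM kinase genes, BCL2L1, CISH, the cyclin gene CCND3, the anti-apoptotic MCL1 and the prostaglandin receptor gene PTGER4. The lists were chosen with earlier results of these data known, so their counts are a description.

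At CISH, the region chr3:50611807-50612083 covered the promoter printed above, beside a start site of the neighbouring kinase gene MAPKAPK3. Its NR3C1 fold was 6.41, its untreated STAT5B fold 12.7 and its STAT5B fold with prednisolone 7.91. The NR3C1 fold at CISH was thus below those at BCL2L1 and PIM1, while all 3 loci had a STAT5B call in both N642H libraries. A second region inside BCL2L1 had folds of 6.79 for NR3C1 and 4.71 for untreated STAT5B. The nearest NR3C1 region called in both lines lay 32013 bp from the first BCL2L1 region and 23323 bp from the second. NR3C1 was thus called at this locus in WT cells too, and BCL2L1 had 3 linked NR3C1 regions in N642H cells. CCND3 had 2 regions, with NR3C1 folds of 9.76 and 8.47 on STAT5B folds of 8.11 and 9.05, and neither had a STAT5B call with prednisolone. The nearest NR3C1 region called in both lines lay 11698 and 4281 bp from them, so NR3C1 was called near CCND3 in WT cells too. PIM3, MCL1 and PTGER4 had NR3C1 folds of 6.37, 6.74 and 5.33 and likewise none. NR3C1 and STAT5B summits were 7 bp apart at PIM1 and PIM3, and 3 bp apart at the MCL1 region, which lay 11630 bp from the gene and nearest ADAMTSL4.

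Among 30 glucocorticoid response genes, 6 were linked to these regions and 20 to any NR3C1 region of the line. KLF13, a Krüppel-like factor gene, had an NR3C1 fold of 8.40, the ZFP36 neighbour region 7.60, and the region 5114 bp beyond IL7R, the interleukin 7 receptor gene, 7.20. The insulin signalling adaptor gene IRS2, the pro-apoptotic BCL2L11, whose product BIM mediates glucocorticoid killing of lymphoid cells, and the chemokine receptor gene CXCR4 followed at 6.80, 6.37 and 4.70. Untreated STAT5B folds at the 6 ran from 4.27 at BCL2L11 to 7.73 at IL7R, and none had a STAT5B call with prednisolone. Of all 362 regions 11.0% had that call, so 6 regions can lack it through their number alone. At BCL2L11 the NR3C1 summit was 244 bp upstream of the start site and 166 bp from the untreated STAT5B summit. The untreated STAT5B −log10 q there, 2.62, was the lowest among the 362 regions. For KLF13 an NR3C1 region called in both lines lay 1510 bp away, and for ZFP36 2661 bp away, so these loci had NR3C1 in WT cells too, next to the N642H-only region. Such a region lay 14500 bp away for CXCR4 and 15047 bp away for IL7R, still within the 20 kb of a link. For BCL2L11 and IRS2 the nearest lay 36607 and 58536 bp away.

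The other lists gave 6 linked genes or fewer each. Linked to any NR3C1 region of the line were 7 of 20 BCL2 family genes and 9 of 23 interleukin 7 receptor and JAK-STAT genes. BCL2 family genes were linked 3 times among 20, at BCL2L1, MCL1 and BCL2L11. Of 23 interleukin 7 receptor and JAK-STAT genes, IL7R and IL2RG, the common cytokine receptor gamma chain gene, were linked, the latter with an NR3C1 fold of 8.92 on a STAT5B fold of 6.57. Of 35 T-lineage genes, 6 were linked and 25 had any NR3C1 region of the line. They were PTCRA, the pre-T-cell receptor alpha chain gene, with an NR3C1 fold of 9.01, the coreceptor gene CD8A with 8.07, the recombinase gene RAG1 with 6.97, and the transcription factor genes IKZF3, IKZF2 and RUNX1 with 6.89, 5.85 and 5.68. None of the T-lineage links had a STAT5B call with prednisolone, which 11.0% of all 362 regions had.

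In the PI3K-AKT list of 20, the catalytic subunit gene PIK3CD had 2 regions and the phosphatase gene INPP5D 1. The stronger PIK3CD region had folds of 10.3 for NR3C1, 15.5 for untreated STAT5B and 8.997 for STAT5B with prednisolone. INPP5D had folds of 4.24 for NR3C1 and 8.02 for untreated STAT5B, with no STAT5B call under prednisolone. The NR3C1 −log10 q at INPP5D, 2.22 on 9 reads, was the lowest among the 362 regions. In the G1 list of 19, CCND3 and RB1 were linked, RB1 through the strong LPAR6 region and at its own start with an NR3C1 fold of 5.94. Of 22 MAP kinase and NF-kappaB feedback genes only DUSP10, a phosphatase gene, was linked, with an NR3C1 fold of 7.19. For the PI3K-AKT, G1 and MAP kinase lists, 8, 5 and 6 genes were linked to any NR3C1 region of the line. No link was found for 24 genes with highly expressed promoters, where ChIP background is often seen, nor for 16 genes of other blood cell types or 16 of non-blood tissues. For these 3 lists, 3, 2 and 0 genes were linked to any NR3C1 region of the line. Of all protein-coding genes, 2.04% were linked to the regions described here, so lists this short can lack a link through their size alone. Outside the list of highly expressed promoters, such regions overlapped promoter windows of RPL27, NACA, ATP5F1A, HNRNPA0 and GARS1. Whether ChIP background contributed to any of the regions was not tested.

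**Figure D3:**
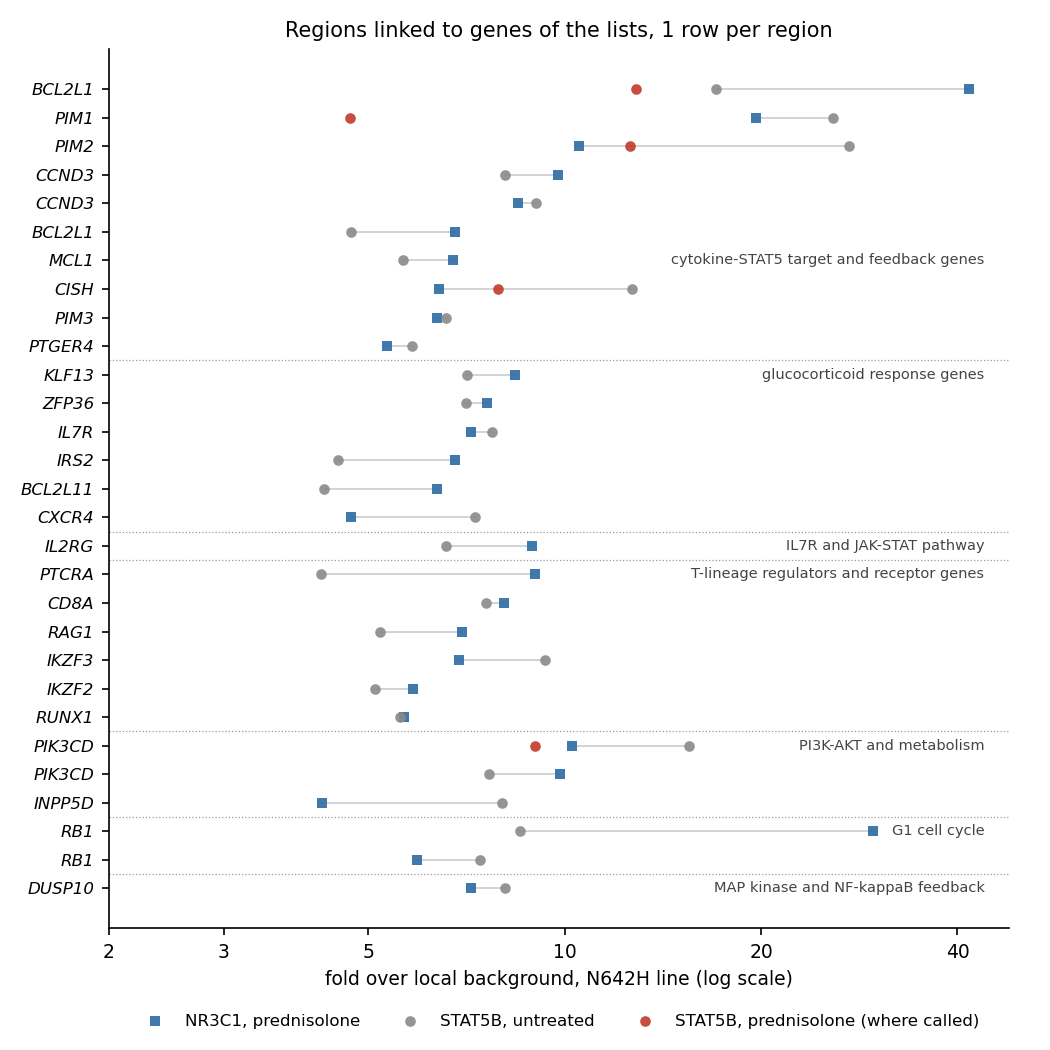
Each row is 1 region linked to a gene of a list, shown once under the first list that holds the gene, with the fold over local background in N642H cells on a log axis. Squares give NR3C1 with prednisolone, grey circles STAT5B untreated and red circles STAT5B with prednisolone where a region was called. Red circles appear at 5 rows, those of BCL2L1, PIM1, PIM2, CISH and PIK3CD. Over all 362 regions, 40 (11.0%) had such a STAT5B call.

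Whether STAT5B was still called under prednisolone was read from a library the choice had not used. That library was not independent of the choice, which required an untreated STAT5B call of the same line at the 362 regions. Regions without untreated STAT5B were defined by lacking such a call, so the direction of that comparison could be foreseen from the choice. A STAT5B region of N642H cells with prednisolone overlapped 40 of the 362 regions (11.0%, exact 95% interval 8.01 to 14.7), against 47 of 1354 N642H-only NR3C1 regions without untreated STAT5B (3.47%, 2.56 to 4.59). Over all 2888 NR3C1 regions the share was 7.76%. The odds ratio was 3.45 (95% interval 2.17 to 5.48, Fisher's exact test, two-sided, Benjamini-Hochberg adjusted p over 10 tests = 1.95e-07). In the second class, 43 of the 47 overlaps came from regions of high local background (10 times the lowest shared value or more), and none of the 362 was of that kind. Without such regions, the shares were 40 of 362 and 4 of 1298 and the odds ratio was 40.1.

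On N642H-only NR3C1 regions that sat on STAT5B sites of untreated WT cells, the share was higher, 72 of 285 (25.3%, 20.3 to 30.7; odds ratio of the 362 against them 0.368, 0.234 to 0.572, Fisher's exact adjusted p = 4.60e-06). Away from gene ends it was 11.6% against 15.5%, and the odds ratio of 0.714 did not pass (Fisher's exact adjusted p = 0.31). Once the lists were cut to the same length, the comparison turned round, at 23 of 67 (34.3%) against 9 of 28 (32.1%) and an odds ratio of 1.10 (Fisher's exact adjusted p = 1). Where NR3C1 was called in both lines on N642H-only STAT5B, 9 of 84 regions (10.7%, 5.02 to 19.4) kept a call, and the odds ratio of 1.04 had an interval from 0.468 to 2.53 (Fisher's exact adjusted p = 1). Pooled over 5 groups of like NR3C1 strength, the Mantel-Haenszel odds ratio was 2.87 with an interval from 1.23 to 6.73, so this comparison turns on whether strength is taken into account.

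Counted by STAT5B region, prednisolone calls were again more frequent at the shared sites. Of 352 untreated STAT5B regions of the N642H line that touched these NR3C1 regions and overlapped no WT STAT5B region, 40 (11.4%, 8.24 to 15.2) overlapped a STAT5B region with prednisolone, against 45 of 2752 that touched no NR3C1 region (1.64%, 1.20 to 2.18). For all 4542 untreated STAT5B regions the share was 6.87%. The odds ratio was 7.70 (4.82 to 12.3, Fisher's exact test, two-sided, adjusted p = 2.49e-16). Untreated STAT5B was also stronger at the shared sites, with a median fold of 6.76 against 5.89, and within 5 groups of like untreated STAT5B q-value the odds ratio was 3.84.

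The 40 regions were the stronger ones. Their NR3C1 fold had a median of 13.7 against 7.33 in the other 322, and their untreated STAT5B fold 10.2 against 6.64. In 4 groups of equal size by NR3C1 q-value, the share with a STAT5B call under prednisolone was 4.40%, 3.33%, 8.89% and 27.5% from the weakest to the strongest. In 4 such groups by untreated STAT5B q-value it was 0 of 91, which allows a share of up to 3.30%, then 6.67%, 4.44% and 33.0%. Among the 50 strongest by NR3C1 q-value 21 (42.0%) had the call, and among the 50 weakest 1 did. Intervals and limits cover counting error only.

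**Figure D4:**
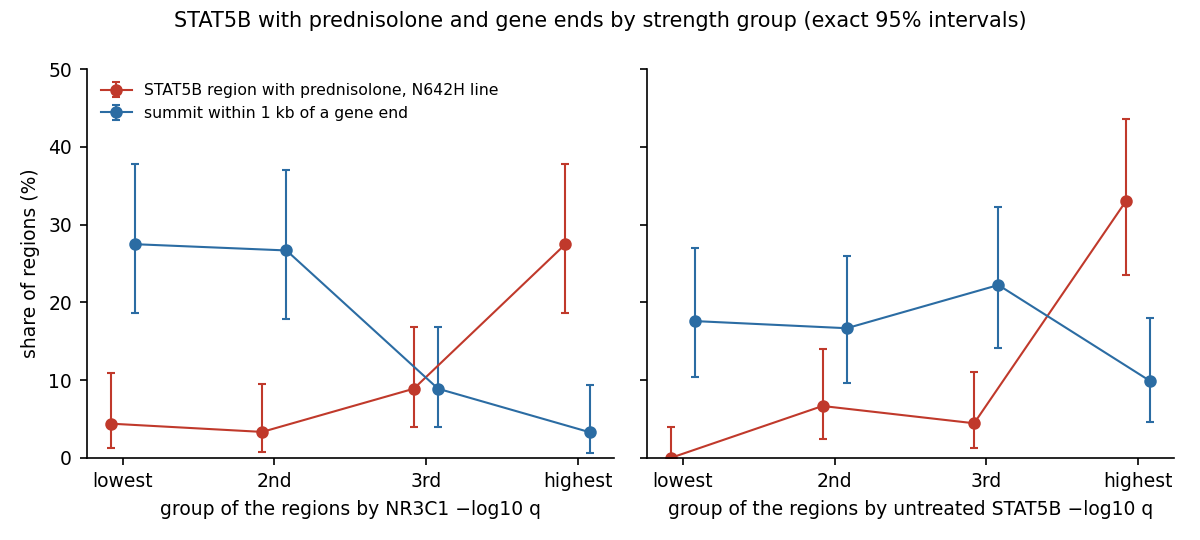
Points give, for 4 groups of equal size of the 362 regions ranked by NR3C1 (left) or untreated STAT5B (right) −log10 q, the share in % with a STAT5B region of N642H cells with prednisolone (red) and with the summit within 1 kb of a gene end (blue), with exact 95% intervals. The red share reaches 27.5% and 33.0% in the highest groups, and the blue share is 3.30% in the highest NR3C1 group.

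By STAT5B q-value under prednisolone, the leading regions after BCL2L1 and OTUD5 were at TADA1, a SAGA coactivator subunit gene, with a STAT5B fold of 11.3 against 10.1 untreated, at ACTR3, and at DPP4, which encodes the T-cell surface peptidase CD26, with 10.2 against 13.1. SV2B, XPNPEP2, PIK3CD, NOM1 and FRG1 followed, with STAT5B folds from 7.86 to 9.82. The XPNPEP2 and PIK3CD regions lay inside their genes, whereas the SV2B region lay 167708 bp away. Between NR3C1 and STAT5B summits the median distance at the 40 was 24.0 bp with the untreated STAT5B summit and 40 bp with the prednisolone one, nearer under prednisolone at 15 and farther at 24.

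The choice had excluded NR3C1 regions of prednisolone-treated WT cells and STAT5B regions of untreated WT cells. In the STAT5B list of prednisolone-treated WT cells, which the choice had not used, 19 of the 362 regions had a STAT5B call (5.25%, 3.19 to 8.08). Over all 2888 NR3C1 regions the share was 9.04%. It was 7 of 1354 without untreated STAT5B (0.517%, odds ratio 10.6, 4.24 to 30.2, Fisher's exact adjusted p = 3.65e-08) and 109 of 285 on WT-line STAT5B (38.2%, odds ratio 0.0898, 0.0503 to 0.153, Fisher's exact adjusted p = 1.94e-25). Untreated STAT5B calls defined both of these classes, in WT cells for the second, so the direction of both comparisons could be foreseen from the choice. Both-line NR3C1 regions on N642H-only STAT5B had 11 of 84 (13.1%, odds ratio 0.369, 0.159 to 0.896, Fisher's exact adjusted p = 0.0189). At these 19 places STAT5B was listed in untreated N642H cells and in prednisolone-treated WT cells, but not in untreated WT cells.

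The STAT5B list of prednisolone-treated WT cells appears to hold rescaled values, so its folds are given only to rank regions within it. Leading these 19 by WT STAT5B fold were SH2B1, an adaptor gene of JAK-linked receptors, with 8.98, TFPT with 8.88, EMILIN1 with 8.67, FAM76B with 8.50 and PPFIA4 with 7.88. PSMG2, RPL27, MROH8, IGSF11 and PSD4 followed from 7.66 to 7.07. At TFPT and FAM76B an untreated WT STAT5B region lay 96 and 75 bp outside the NR3C1 region. Only 4 of the 19, at SH2B1, TOX4, MRPL21 and a region on chromosome 8, also overlapped a STAT5B region of N642H cells with prednisolone, and 7 of the 19 were at gene ends.

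By position, 173 of the 362 summits (47.8%) were inside a gene, 129 (35.6%) between genes, and 60 (16.6%, 12.9 to 20.8) at a gene end, meaning 1 kb or less from where a protein-coding gene starts or stops in the annotation. Over all 2888 regions the last share was 12.1%. It was 101 of 1354 without untreated STAT5B (7.46%, odds ratio 2.46, 1.72 to 3.51, Fisher's exact adjusted p = 1.24e-06), 111 of 285 on WT-line STAT5B (38.9%, odds ratio 0.312, 0.212 to 0.456, Fisher's exact adjusted p = 6.93e-10) and 6 of 84 for both-line NR3C1 regions (7.14%, odds ratio 2.58, 1.06 to 7.57, Fisher's exact adjusted p = 0.0299). The first of these turned round when both NR3C1 lists, and both untreated STAT5B lists, were cut to equal length, with 2 of 67 regions against 17 of 280. The last gave a Mantel-Haenszel odds ratio of 1.14 (0.427 to 3.06) over 5 groups of like NR3C1 strength.

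**Figure D5:**
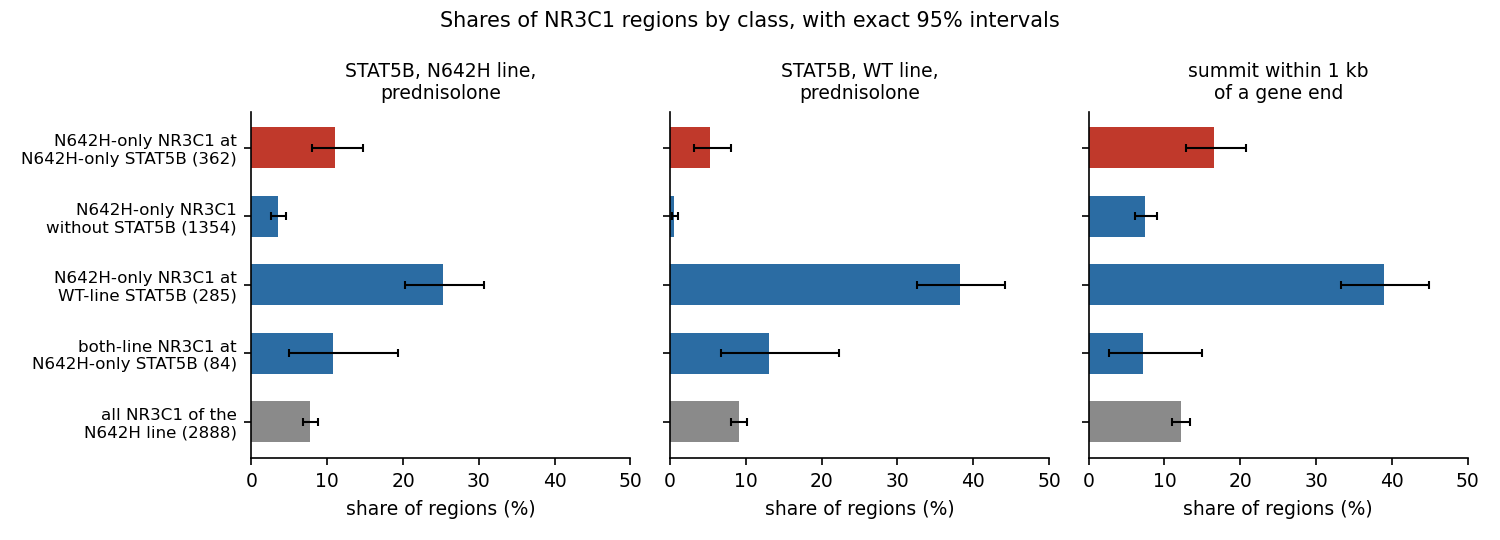
Bars give the share in % of each class of NR3C1 regions (number in brackets) that overlaps a STAT5B region of N642H cells with prednisolone (left), of WT cells with prednisolone (middle), or has its summit within 1 kb of a gene end (right), with exact 95% intervals. The 362 regions (red) sit between the regions without untreated STAT5B and those on WT-line STAT5B in each panel.

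Regions at gene ends were weak for NR3C1. Their NR3C1 fold had a median of 6.53 against 8.07 inside genes and 8.04 between genes, whereas the untreated STAT5B medians were 7.05, 6.95 and 6.99. In the 4 groups by NR3C1 q-value, the gene-end share was 27.5%, 26.7%, 8.89% and 3.30% from the weakest to the strongest, and 2 of the 50 strongest were at a gene end against 13 of the 50 weakest. Measured to the 350 regions with a start site in the RefSeq table, 65 summits (18.6%) lay within 1 kb of a start site, 57 from 1 to 10 kb away, 144 from 10 to 100 kb away and 84 (24.0%) farther. For N642H-only NR3C1 regions without untreated STAT5B, 7.40% lay within 1 kb and 37.5% beyond 100 kb.

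The calls that define the 362 regions are sharp thresholds on graded data, and some regions lay close to them. The overlap with untreated N642H STAT5B was 1 bp at one POU1F1 region, with the next smallest, at CIC, being 28 bp. Just outside, NR3C1 regions at DHRS12 and PRSS22 missed such a STAT5B region by 2 and 6 bp. A WT NR3C1 region lay within 500 bp of 3 of the 362, the nearest 29 bp away at MON2, and within 50 kb of 73 (20.2%). An untreated WT STAT5B region lay within 500 bp of 16, the nearest 4 bp away at CCDC57. Of the 363 untreated N642H STAT5B regions at these places, 352 overlapped no WT STAT5B region anywhere along their own length.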

How the data were processed

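Peak lists of 8 ChIP libraries (NR3C1 or STAT5B, WT or N642H, untreated or prednisolone) were used as deposited. BWA, MACS2, deepTools and hg38 are named in the submitters' processing notes; tool versions are not given in the sources used here. Judging by the values, the authors called peaks separately in each library. Each deposited list gives, per peak, an integer score, the authors' fold enrichment (a ratio to local background), and the −log10 p-value and −log10 q-value of their peak caller, with q-values listed down to −log10 q of 2.

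Regions of chromosomes 1 to 22, X and Y were kept. Overlap meant at least 1 bp. Summit pileup and local background were solved from fold and p where the list was not rescaled. Genes came from RefSeq (GRCh38.p14, 19866 protein-coding genes), and promoter windows from its promoter table. Intervals are exact binomial. Fisher's exact tests (scipy 1.17.1) were Benjamini-Hochberg adjusted over 10 tests, with a threshold of 0.05. The code was tested on simulated regions. Named genes were the nearest to the 20 strongest members by NR3C1 q, the 10 strongest by STAT5B q untreated and the 10 with prednisolone, up to 10 in the WT prednisolone STAT5B list by fold, and up to 8 per gene list. Sequences came from 3 named loci holding a motif and 2 chosen after their values were seen. The regions, gene lists and tests were chosen with earlier results of these data known. Alternatives were overlap, threshold, list length, high background, gene-end distance and strength groups.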

Additional observations from a re-analysis of the deposited data

How the results depend on the processing

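Of 83 odds ratios under alternatives, 74 kept their direction and side of the threshold. The 362 regions numbered from 322 to 372 under 5 alternatives and 67 with lists cut to equal length, where 23 of 67 against 9 of 28 on WT-line STAT5B sites reversed the STAT5B comparison with prednisolone (odds ratio 1.10). In the same setting, the gene-end odds ratio was 0.477 against regions without STAT5B, which reversed it, and 0.189 against those on WT-line STAT5B, which no longer passed. No ratio could be given there for WT STAT5B against regions without STAT5B (2 of 67 and 0 of 280) or gene ends against both-line regions (2 of 67 and 0 of 33). With regions within 500 bp counted as overlapping, the STAT5B ratio against both-line regions was 0.979, a reversal, and their gene-end ratio 1.91 did not pass, nor did 2.88 with gene ends within 200 bp. Within 5 groups of NR3C1 strength, the STAT5B ratio against both-line regions was 2.87 and passed, whereas the gene-end ratio of 1.14 did not. Away from gene ends, the STAT5B ratio against regions on WT-line STAT5B was 0.714 and did not pass. The causes were not tested. Start sites in place of gene ends, strength groups for the WT STAT5B and gene-end comparisons, and WT STAT5B away from gene ends were added after seeing the data. Against regions without STAT5B, the STAT5B ratio stayed between 2.99 and 43.5 in the 8 alternatives run. The planned motif search around summits was not run, since no genome was used here. No paired analysis was possible because each group is 1 library. A missing call is not a measurement of absent binding, and the part of depth in missing calls was not tested. In the N642H library with prednisolone, where the 362 regions were called, their NR3C1 summits held as few as 8 reads.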

Other observations

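Several loci carried more than 1 of the regions, and those named here were chosen after their values were seen. Of the 362 regions, 35 (9.67%) had another of them within 50 kb, in 18 neighbouring pairs. Between genes, 979646 and 1001316 bp from the nearest gene BCL11B, a T-lineage commitment factor, NR3C1 folds were 17.8 and 6.05 at summits 21670 bp apart. The initiator caspase genes CASP10 and CASP8 each held a region, with NR3C1 folds of 10.7 and 9.29. The class IIa histone deacetylase genes HDAC4 and HDAC7 held 3 and 2, with NR3C1 folds from 5.75 to 8.49. Inside MSI2, an RNA-binding protein gene, folds of 18.4 and 4.31 stood 5715 bp apart. A WT NR3C1 region lay 823 bp from 1 HDAC4 region, 5486 bp from the CASP8 region and 8690 bp from the stronger BCL11B region. For the CASP10 region and the stronger MSI2 region the nearest lay 31963 and 48432 bp away.

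A region nearest DUSP6, but 306844 bp from it, had folds of 14.7 for NR3C1, 15.5 for untreated STAT5B and 7.20 for STAT5B with prednisolone, and a WT NR3C1 region lay 399 bp away. By chromosome, 17 held 30 of the regions (8.29%) beside 5.51% of all NR3C1 regions of the line, and 14 held 23 (6.35%) beside 4.05%, with no test made.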
